A study of Mus musculus with 96 samples.

Results

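The S100 proteins and annexins described here are 10 genes, S100a4, S100a6, S100a10, S100a11 and Anxa1 to Anxa6 (4 S100 genes and 6 annexins). They were chosen by symbol, each matching 1 of the 21711 gene rows of the deposited count table. Single mouse cells were profiled by STRT (single-cell tagged reverse transcription), in which every well's cDNA is barcoded as it is made and strand-specific reads come from 5′ ends. The series title sets out a description of the transcripts of both cell types by multiplexed sequencing, and its comparison is MEF against ES cell. The 96-well plate carried 44 wells labelled as mouse embryonic fibroblasts (MEFs), 4 empty negative control wells and 48 wells labelled as embryonic stem cells (ES cells). MEFs, connective tissue cells of the mouse embryo, were grown in DMEM with serum, antibiotics, Glutamax and 2-mercaptoethanol. ES cells, pluripotent cells of the early embryo, were of the R1 line and were cultured by a protocol that the labels only cite. No treatment is named for either type.

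The labels limit what the comparison can carry. They name R1 as the source line of the MEF wells too, against the cell type given for those wells. No separate cultures are named, so each type counts as 1 sample and its cells do not replicate it. No p-value or standard error was computed. MEFs and ES cells filled separate plate columns, so plate side and cell type cannot be told apart, while both types were present in each of the 8 plate rows. Each difference is therefore given with the SD of its log2 ratio among the 8 plate rows, a spread within this plate that holds no variation between cultures.

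S100 proteins are small calcium-binding proteins of the EF-hand type that act mostly as dimers and bind partner proteins when calcium rises. Annexins bind acidic phospholipids in a calcium-dependent way and take part in membrane repair, membrane trafficking and the link between membrane and actin. The families meet in complexes, the best known being that of S100a10 with Anxa2 and that of S100a11 with Anxa1. In fibroblasts both families are known for roles in motility, adhesion and the mending of plasma membrane lesions.

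STRT counts reads at transcript starts, so the sequence just upstream of the annotated start is shown for 5 members whose results are described most closely. Each is the 250 bases before the start in the RefSeq promoter table (build GRCm38.p6), written 5′ to 3′ along the gene's strand. Capitals mark TGANTCA, the AP-1 motif, and TATAAA, the TATA box motif, on either strand; GC box and E-box letters stay in lower case. S100a4 lies at chr3:90603520-90603769 (plus strand) and S100a6 at chr3:90612644-90612893 (plus strand). S100a11 lies at chr3:93520246-93520495 (plus strand), Anxa1 at chr19:20390672-20390921 (minus strand) and Anxa2 at chr9:69453433-69453682 (plus strand).
S100a4: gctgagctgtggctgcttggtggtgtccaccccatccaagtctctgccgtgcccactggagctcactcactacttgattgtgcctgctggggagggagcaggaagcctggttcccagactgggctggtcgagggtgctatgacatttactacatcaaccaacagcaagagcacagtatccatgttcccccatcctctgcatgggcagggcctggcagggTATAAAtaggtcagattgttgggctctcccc
S100a6: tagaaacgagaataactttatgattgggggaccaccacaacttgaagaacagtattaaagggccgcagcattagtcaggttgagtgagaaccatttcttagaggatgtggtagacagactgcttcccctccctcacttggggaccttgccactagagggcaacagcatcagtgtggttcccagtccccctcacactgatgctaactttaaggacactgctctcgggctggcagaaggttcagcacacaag
S100a11: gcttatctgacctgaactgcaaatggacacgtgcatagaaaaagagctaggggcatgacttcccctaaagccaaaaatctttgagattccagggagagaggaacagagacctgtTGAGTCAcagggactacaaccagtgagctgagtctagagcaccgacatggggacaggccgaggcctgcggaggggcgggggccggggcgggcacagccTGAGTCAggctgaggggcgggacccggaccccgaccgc
Anxa1: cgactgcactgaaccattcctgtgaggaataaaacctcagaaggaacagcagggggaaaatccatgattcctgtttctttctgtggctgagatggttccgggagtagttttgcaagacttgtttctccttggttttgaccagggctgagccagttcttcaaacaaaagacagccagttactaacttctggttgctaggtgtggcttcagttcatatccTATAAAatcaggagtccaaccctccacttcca
Anxa2: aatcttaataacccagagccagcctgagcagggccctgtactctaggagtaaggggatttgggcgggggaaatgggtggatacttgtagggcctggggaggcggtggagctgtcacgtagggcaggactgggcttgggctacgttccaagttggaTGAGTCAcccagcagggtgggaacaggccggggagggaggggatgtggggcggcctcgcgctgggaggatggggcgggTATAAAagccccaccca

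Of the 10 members, 7 had an entry in that table (8 entries, as Anxa4 had a pair of starts), and S100a10, Anxa3 and Anxa6 had none. TATAAA stood in the S100a4, Anxa1 and Anxa2 windows, beginning 31, 32 and 17 bases before the start, and 12.4% of all 32851 windows of this length held it. TGANTCA stood in the S100a11 window, beginning 136 and 38 bases before the start, and in the Anxa2 window at 95 bases, against 6.75% of all windows. The GC box letters GGGCGG, held by 32.7% of all windows, occurred 3 times each in S100a11 and Anxa2. The E-box letters CACGTG, held by 6.02%, occurred once in S100a11. The S100a6, Anxa4 and Anxa5 windows held none of these 4 motifs on either strand. The S100a11 and Anxa2 windows held 11 and 9 CpG dinucleotides, against a median of 6 over all windows, and those of S100a4, S100a6 and Anxa1 held 2, 3 and 2. These matches describe letters only, and no binding was measured.

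Wells with at least 10000 gene reads were kept, which left 44 of 44 MEFs and 45 of 48 ES cells. Gene reads per well had a median of 851801 in MEFs (63938 to 1883709) and 161206 in ES cells (13576 to 703423), while the 4 negative control wells held 236 to 4662. The cell type labels were matched by their markers: 11 of 11 fibroblast markers passed 2-fold towards MEFs and 11 of 11 ES cell markers passed it towards ES cells, Nanog having 0 reads in MEFs. Among the macrophage and blood markers, Cd68, Fcgr3, Hbb-b1 and Hba-a1 had 0 reads in MEFs, as had Pecam1 and Cdh5 of the endothelial list. Other markers of those lists had reads in MEFs, Flt1 545, Kdr 200 and Tek 76 among the endothelial ones and Lyz2 74 and Csf1r 23 among the macrophage ones. Summed over each list, no MEF was above 127 CPM (endothelium) or 75.3 CPM (macrophage and blood), and no ES cell above 299 or 94.7 CPM, with medians of 0 in both types. Other lists reached higher sums in single MEFs. The highest were 2720 CPM (neural, median 84.5), 2262 CPM (early endoderm, 64.3), 696 CPM (epithelium and keratinocyte, 4.76) and 501 CPM (trophoblast, 0). In ES cells the highest sums of these lists were 327, 54.5, 1271 and 203 CPM. The part of any of these lists in the members' values was not tested. Of the smooth muscle markers, 5 of 6 exceeded 2-fold towards MEFs, against 58.5% of all gene rows with at least 20 reads. The exception, Des, passed 2-fold towards ES cells (15.4% of all), with a log2 ratio of −2.35 from counts of 15 (MEF) and 19 (ES cell). Myh11 was read in 5 MEFs (88 reads) and no ES cell, so its ratio rests on the floor of 3 reads. The summed levels of these markers were 35.1 to 12850 CPM in MEFs and 0 to 2670 CPM in ES cells. The median share of gene reads from ribosomal protein genes was 14.2% in MEFs and 45.9% in ES cells, and gene reads per spike-in read were 152 and 6.62. With levels as counts scaled to a common total of gene reads (counts-per-million, CPM), the median log2 ratio of MEF over ES cell over the 12818 gene rows with at least 20 reads was 1.48.

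All 10 members had at least 20 reads, and all 10 were at least 2-fold higher in MEFs, as were 58.5% of all gene rows tested. None was at least 2-fold higher in ES cells (15.4% of all). Under median-of-ratios scaling 9 members were at least 2-fold higher in MEFs, with 36.4% of all rows at least 2-fold higher in MEFs and 30.1% in ES cells. Measured against the median gene, 9 of 10 members lay at least 2-fold above it (33.3% of all), the exception being S100a10. The members' median log2 ratio was 4.15 (SD 0.93 over plate rows), a 17.8-fold difference, against 1.48 (SD 0.47) over all rows. The S100 genes alone had a median of 3.81 (SD 0.81) and the annexins 4.18 (SD 1.18), so the families differed from each other by less than the spread over plate rows.

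**Figure D1:**
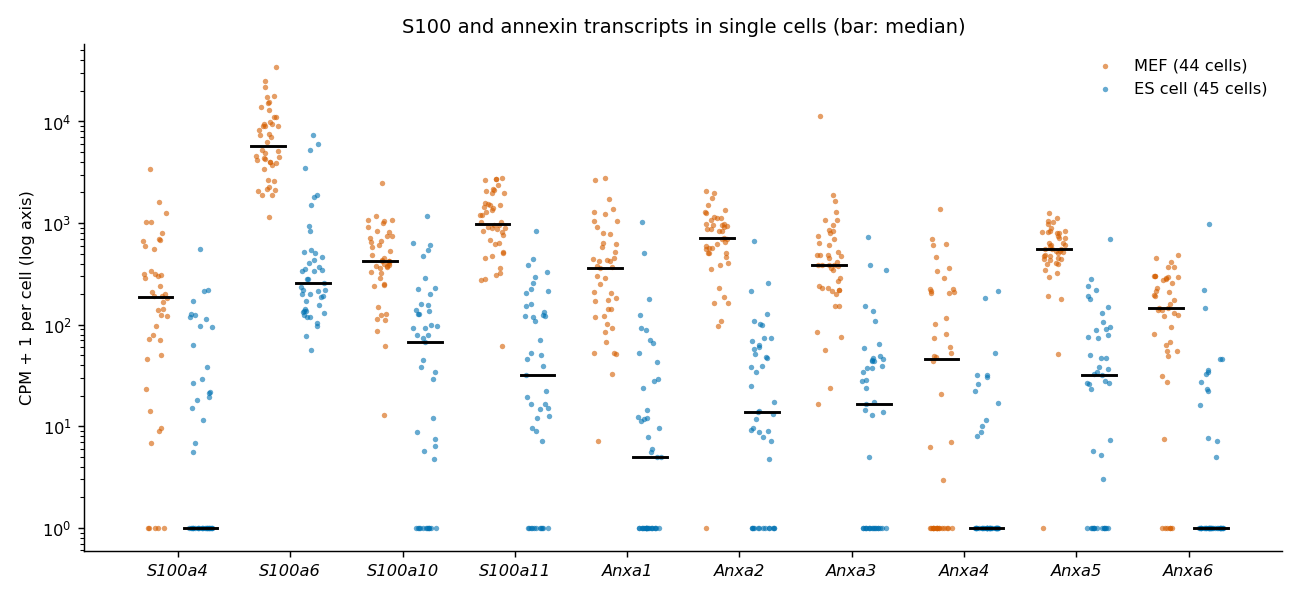
CPM + 1 (log axis) of each of the 10 genes in every kept cell, with MEFs (orange, 44 cells) left of ES cells (blue, 45 cells) and bars at the medians; points at the bottom are cells with 0 reads. The MEF median lies above the ES cell median for all 10 genes, and S100a6 is the gene with reads in every cell of both types.

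The plate rows showed the same order of the types for most members. Pooled CPM was higher in MEFs in all 8 plate rows for 9 of 10 members, against 15.7% of all rows tested, and in 7 of 8 for Anxa6. For 8 of 10 members the lowest MEF plate row lay above the highest ES cell plate row, which held for 9.08% of all gene rows. The exceptions were S100a4, with 88.3 CPM in the lowest MEF row and 112 CPM in the highest ES cell row, and Anxa6, with 82.5 and 92.2 CPM.

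**Figure D2:**
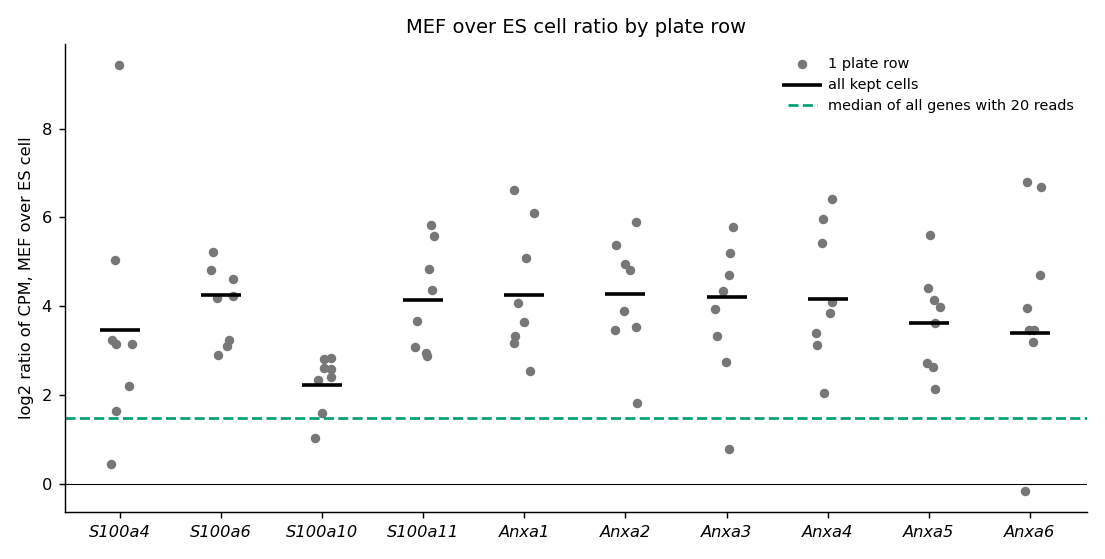
Log2 ratio of CPM, MEF over ES cell, for each of the 10 genes in each of the 8 plate rows (grey points) and over all kept cells (black bars); the dashed line is the median of all gene rows with at least 20 reads, 1.48. S100a10 has the lowest overall ratio, 2.22, and the narrowest spread, and Anxa6 has the only point below 0.

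Among the S100 genes, S100a6 (calcyclin, a partner of the calcyclin-binding protein Cacybp) stood far above the rest. Per cell it had 1150 CPM at the lowest, 5715 at the median and 34350 at the highest in MEFs, against 55, 257 and 7342 CPM in ES cells. All 44 MEFs and all 45 ES cells had a read, 19 MEFs lay above the highest ES cell, and 2 ES cells lay above the MEF median. Pooled over cells, S100a6 had 8213 CPM in MEFs (95% Poisson interval 8183 to 8243) and 435 CPM in ES cells (421 to 449). The log2 ratio was 4.24 (SD 0.86 over plate rows), a difference of 18.9-fold, and 2.76 above the median gene. In order of CPM, without length, it held rank 9 of all gene rows in MEFs and rank 205 in ES cells.

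S100a11, which binds Anxa1 through the annexin's N terminus, had 59.99, 988 and 2807 CPM in the lowest, median and highest MEF, against 0, 30.7 and 839 CPM in ES cells. No ES cell lay above the MEF median, and 28 of 44 MEFs lay above the highest ES cell, the most for any member. The pooled levels were 1261 CPM in MEFs (1249 to 1273) and 71.1 CPM in ES cells (65.6 to 76.9), a log2 ratio of 4.15 (SD 1.18).

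S100a4, which binds non-muscle myosin and is often used to label fibroblasts, was less even. Its per-cell values ran over 0, 185 and 3423 CPM in MEFs, against 0, 0 and 555 CPM in ES cells, so that 5 of 44 MEFs had no read while 22 of 45 ES cells had one. The pooled levels were 323 CPM in MEFs (317 to 329) and 29.2 CPM in ES cells (25.8 to 33.1). The log2 ratio of 3.47 had an SD of 2.73 over plate rows, the widest among the members, with single rows at 0.44 to 9.43. MEF replicate 68 alone held 26% of the MEF reads of S100a4, and without it the ratio was 3.07.

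S100a10 (p11), the partner of Anxa2 whose EF-hands no longer bind calcium, had the smallest pooled ratio between the types at full depth (after thinning to 20000 reads per cell it was 2.25, and that of Anxa6 was 2.04). Its per-cell values were 12.1, 425 and 2457 CPM in MEFs and 0, 66.8 and 1179 CPM in ES cells. The ranges overlapped widely, with 2 MEFs above the highest ES cell and 5 ES cells above the MEF median. These 5 were ES cell replicates 8, 4, 30, 18 and 7, with 1179, 636, 605, 541 and 470 CPM. All but replicate 18 had summed fibroblast markers of 7587 to 24684 CPM, inside the range of the MEFs. Replicate 8, the highest, had the fewest gene reads of the kept ES cells (13576). Pooled levels were 488 CPM in MEFs (480 to 495) and 105 CPM in ES cells (98.1 to 112). The log2 ratio was 2.22 (SD 0.63), 4.65-fold, which left S100a10 0.74 above the median gene. Under median-of-ratios scaling, in which the median gene stood at 0.20, the ratio of S100a10 was 0.94 and under 2-fold, and leaving ribosomal protein genes out of the totals gave 1.58.

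Among the annexins, Anxa2, which joins membrane to actin and with S100a10 serves as a surface receptor of the plasminogen system, had 0, 710 and 2058 CPM in the lowest, median and highest MEF. In ES cells the values were 0, 12.7 and 672 CPM, and none of the 45 lay above the MEF median. Of the MEFs, 24 lay above the highest ES cell. Pooled, Anxa2 had 746 CPM in MEFs (737 to 755) and 38.6 CPM in ES cells (34.6 to 43), with a log2 ratio of 4.27 (SD 1.31), the highest of the members.

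Anxa1 (lipocortin, an anti-inflammatory ligand of formyl peptide receptors) had per-cell values of 6.09, 362 and 2793 CPM in MEFs, against 0, 3.95 and 1024 CPM in ES cells. Every MEF and 24 of 45 ES cells had a read. The pooled log2 ratio was 4.24 (SD 1.46), from 493 CPM in MEFs (486 to 500) and 26 CPM in ES cells (22.8 to 29.6). ES cell plate row H held no Anxa1 read and took a floor of 3 reads, as did plate row H for Anxa4 and plate row A for Anxa6.

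Anxa5, the phosphatidylserine binder used as a probe of dying cells, was the most even annexin among MEFs. It had 0, 553 and 1259 CPM per MEF, with 43 of 44 having a read, and 0, 31.3 and 690 CPM per ES cell, with 32 of 45 having one. The coefficient of variation over MEFs was 0.46, and 96.7% of the 1993 gene rows read in at least 80% of MEFs had a higher one. The pooled levels of 588 CPM in MEFs (580 to 596) and 48.2 CPM in ES cells (43.7 to 53) gave a log2 ratio of 3.61 (SD 1.13).

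Anxa3, an annexin known from neutrophil granules, was the most uneven. It had 15.5, 388 and 11347 CPM in the lowest, median and highest MEF, with a coefficient of variation of 2.24 that only 1.86% of the same 1993 gene rows exceeded. One cell, MEF replicate 83, held the highest value and 16.4% of the MEF reads. In ES cells the values were 0, 15.4 and 737 CPM. The pooled log2 ratio was 4.20 (SD 1.58), from 565 CPM in MEFs (557 to 573) and 30.8 CPM in ES cells (27.3 to 34.8), and 3.95 without that MEF.

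Anxa4, known for forming lattices on membranes and for its place in epithelia, was read in 27 of 44 MEFs and 13 of 45 ES cells. Its per-cell values were 0, 45 and 1365 CPM in MEFs, against 0, 0 and 213 CPM in ES cells. The pooled levels of 180 CPM in MEFs (176 to 185) and 10.1 CPM in ES cells (8.09 to 12.4) gave a log2 ratio of 4.16 (SD 1.51). Anxa4 was also the member whose CPM went most with well depth in MEFs, with a Spearman rho of 0.43 against gene reads over 44 cells of the same plate and library.

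Anxa6, the annexin with a duplicated core that is known from endosome and cholesterol traffic, had 0, 145 and 482 CPM per MEF and 0, 0 and 983 CPM per ES cell. No MEF lay above the highest ES cell, which was ES cell replicate 6 with 64 of the 149 Anxa6 reads of that type (43%). The pooled levels were 179 CPM in MEFs (174 to 183) and 17.1 CPM in ES cells (14.5 to 20.1), a log2 ratio of 3.39 (SD 2.20). Without ES cell replicate 6 the ratio was 4.19, and the plate row that holds this cell, row F, was the only row with a ratio below 0 (−0.16).

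Between genes, levels were compared as CPM per kilobase of the transcript length in the file, although reads from 5′ ends depend less on length than reads spread over a transcript. In MEFs the order of CPM per kilobase was S100a6 (11423), S100a11 (2502), S100a10 (750), S100a4 (649), Anxa2 (543), Anxa3 (354), Anxa1 (353), Anxa5 (342), Anxa4 (89.99) and Anxa6 (67.2). Neighbours differed by more than the SD of their ratio over plate rows at 4 steps, from S100a6 to S100a11, from S100a11 to S100a10, from Anxa2 to Anxa3 and from Anxa5 to Anxa4. The other neighbours did not differ beyond their spread, and without MEF replicate 68 S100a4 stood at 492, below Anxa2 at 545.

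In ES cells the order of CPM per kilobase was S100a6 (605), S100a10 (161), S100a11 (141), S100a4 (58.7), Anxa2 (28.1), Anxa5 (28), Anxa3 (19.3), Anxa1 (18.7), Anxa6 (6.42) and Anxa4 (5.04). Only the step from S100a6 to S100a10 exceeded its spread over plate rows. S100a10 followed S100a6 here, and stood behind S100a11 in MEFs.

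Within single MEFs the annexin with the highest CPM per kilobase varied. It was Anxa2 in 18 of 44 cells, Anxa1, Anxa3 and Anxa5 in 8 cells each, Anxa4 in 2 and Anxa6 in none. Over the MEF plate rows, S100a6 exceeded S100a11 by a mean of 2.06 (log2 of CPM per kilobase, SD 0.63).

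Taken as sums, the 10 members made up 1.30% of gene reads in MEFs and 0.0811% in ES cells, of which the S100 genes were 1.03% and 0.0640% and the annexins 0.275% and 0.0171%. The summed CPM per cell was 3349 at the lowest, 11673 at the median and 44246 at the highest in MEFs, against 108, 471 and 10159 CPM in ES cells. Only 4 ES cells lay above the lowest MEF, and these were replicates 7, 4, 8 and 30 with 10159, 9627, 7808 and 5444 CPM. The same 4 cells had summed fibroblast marker levels of 19507, 24684, 7587 and 8743 CPM, against an ES cell median of 1115 and a MEF range of 6085 to 65916 CPM.

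Depth differed between the types, so the share of cells with a read was also taken after thinning each cell to 20000 gene reads, which left 44 MEFs and 42 ES cells. S100a6 was read in 44 of 44 thinned MEFs and 41 of 42 thinned ES cells. S100a10 was read in 42 MEFs and 20 ES cells, S100a11 in 43 and 22, and S100a4 in 32 and 10. For the annexins the counts were 43 and 17 (Anxa2), 42 and 16 (Anxa5), 42 and 15 (Anxa1), 42 and 14 (Anxa3), 35 and 7 (Anxa6) and 22 and 7 (Anxa4). A thinned MEF held a read of 7 to 10 members (median 9), and a thinned ES cell of 1 to 10 (median 4). At full depth the medians were 10 and 7.

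The ES cell values were set beside those of the control wells and of the fibroblast markers. The 4 negative control wells together held 84 reads of S100a6, 23 of S100a10, 20 of Anxa2, 11 of S100a4, 5 of S100a11, 4 of Anxa5 and 2 of Anxa1, and none of Anxa3, Anxa4 and Anxa6. The members were 1.19% of the gene reads there, close to the 1.30% in MEFs and above the 0.0811% in ES cells. Those wells held 12527 gene reads in all, so 3 reads stand for 239 CPM, and a count of 0 allows up to 294 CPM (95% Poisson interval). In those wells, which lie on the MEF side of the plate, S100a10 stood at 1836 CPM (1164 to 2755), Anxa2 at 1597 CPM (975.2 to 2466) and S100a4 at 878 CPM (438 to 1571), above their 488, 746 and 323 CPM in MEFs. All Anxa2 and all S100a4 reads there were in 1 well each. S100a6 stood at 6706 CPM (5349 to 8302).

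The ES cell level of 9 members was 5.18% (Anxa2) to 9.55% (Anxa6) of the MEF level. The 11 fibroblast markers, genes that define the other type, had 3.83% (Thy1) to 10.9% (Postn) of their MEF level in ES cells, with a median of 6.94%. The 9 members thus lay inside the range of the markers, and whether their ES cell reads are expression in ES cells was not tested. In pooled CPM, S100a10 alone lay outside that range, at 21.5% (95% interval from counts 20.1% to 23%). Without ES cell replicate 47, which held the most S100a10 reads of that type, S100a10 was at 18.7%, and without ES cell replicate 6 Anxa6 was at 5.49%. Without ES cell replicates 4, 7 and 30, which had the highest summed fibroblast markers, S100a10 was at 20.4%, against 3.46% to 9.21% for the markers. ES cell replicates 2, 8 and 22, with marker sums of 8152, 7587 and 6240 CPM, stayed in, although the lowest MEF had 6085 CPM. By the mean of per-cell CPM, however, S100a10 lay inside the marker range, below Postn and above every other marker. Its means were 135 CPM in ES cells and 532 CPM in MEFs, against 13.7 and 41.8 CPM for Postn. Postn was read in 3 ES cells, and ES cell replicate 7 held 13 of its 23 reads there. After thinning to 20000 reads, the log2 ratio of Anxa6 (2.04) was below that of S100a10 (2.25). The part of MEF RNA in the ES cell values was not tested.

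**Figure D3:**
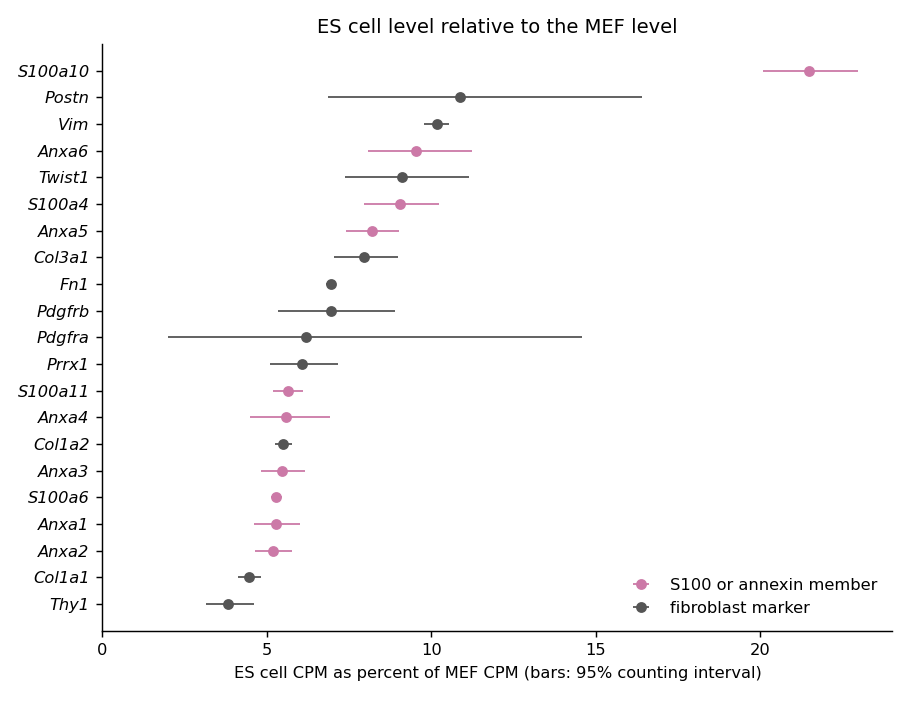
Pooled ES cell CPM as a percent of pooled MEF CPM for the 10 S100 and annexin genes (pink) and the 11 fibroblast markers (grey), with 95% counting intervals that cover read counts only. Of the pink points 9 lie among the grey ones, which run over 3.83% to 10.9%, and S100a10 lies apart at 21.5%.

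Across ES cells, the members differed in how they went with the summed fibroblast markers, over 45 cells that share plate and library and differ in depth. Spearman's rho was 0.79 for S100a6, 0.72 for S100a11, 0.69 for Anxa2, 0.60 for Anxa5, 0.37 for Anxa1, 0.36 for Anxa3 and 0.23 for S100a10, the 7 members read in at least 50% of ES cells. Over all 1198 such gene rows the median rho was 0.06 and the 90th percentile 0.46. The first 4 members thus lay above the 90th percentile and the other 3 below it. Without ES cell replicates 4, 7 and 30 the values were 0.74 for S100a6 and 0.06 for S100a10.

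**Figure D4:**
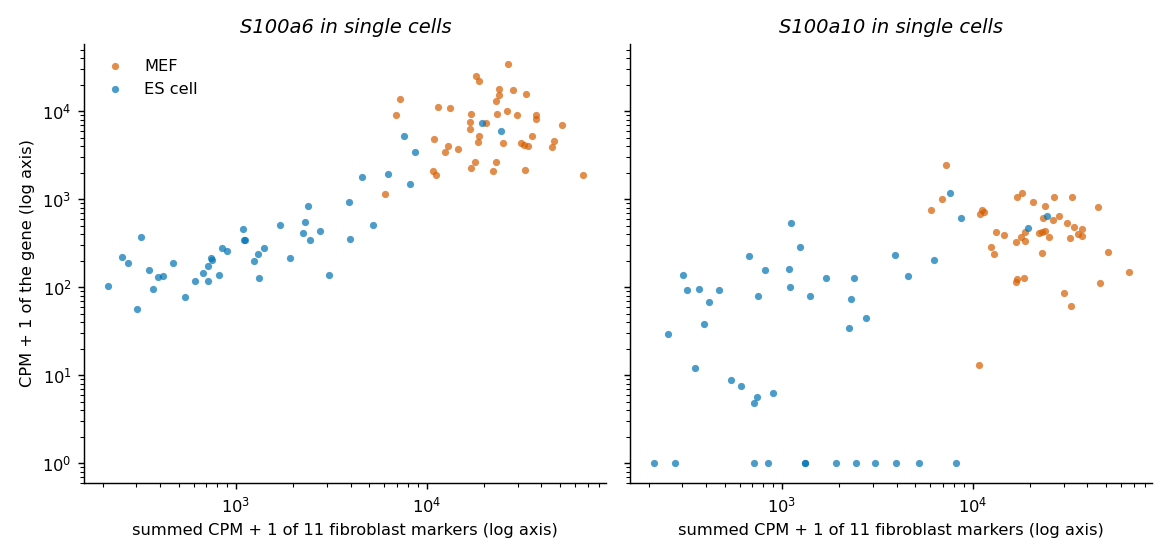
CPM + 1 of S100a6 (left) and S100a10 (right) in each cell against the summed CPM + 1 of 11 fibroblast markers, both on log axes, with MEFs in orange and ES cells in blue. In ES cells S100a6 goes up with the markers (rho 0.79, 45 cells), while S100a10 is spread at every marker level (rho 0.23).

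Among MEFs the values were lower. The rho over 44 MEFs was 0.48 for Anxa6 and 0.41 each for Anxa2 and Anxa5, against 0.09 for S100a6, 0.11 for S100a11 and −0.16 for S100a10. It was 0.02 for S100a4, 0.05 for Anxa1, 0.17 for Anxa3 and −0.10 for Anxa4. Neither the S100 genes nor the other annexins reached the values of Anxa2, Anxa5 and Anxa6, so the families did not separate.

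For the partner genes S100a10 and Anxa2, the ES cell side is only a ratio of reads. The source of the Anxa2 reads there was not tested. Over the 43 MEFs with both, the log2 ratio of S100a10 over Anxa2 reads was −5.89 at the lowest, −0.80 at the median and 2.79 at the highest, against −1.93, 1.13 and 4.83 over the 25 ES cells with both. The ranges overlapped over most of their length. From pooled counts it was −0.61 in MEFs and 1.44 in ES cells, ratios of reads without length. Over plate rows the difference, MEF minus ES cell, had a mean of −1.94 (SD 1.55), and 7 of 8 rows were below 0. Of the other ES cells, 8 had reads of S100a10 only, 7 of Anxa2 only and 5 of neither.

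Over MEFs the levels of the members went together to a moderate degree. Of their 45 pairs, 42 had a rho above 0, with a median of 0.25 (−0.21 to 0.59). Over all pairs of the 1993 gene rows read in at least 80% of MEFs the median was 0.03 (10th percentile −0.19, 90th percentile 0.24). The median of those pairs was thus itself only just above 0. Their share above 0 was not counted, and the rows were not matched to the members in level. Anxa4 was read in fewer than 80% of MEFs. The 6 S100 pairs had a median of 0.39, the 15 annexin pairs 0.19 and the 24 mixed pairs 0.26. Thinning to 20000 reads gave a median of 0.19 over all 45 pairs, with no thinned value over all gene pairs to set beside it.

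The highest pairs were S100a6 with Anxa1 (0.59), S100a6 with S100a11 (0.57), S100a4 with S100a6 (0.56) and the partner pair S100a11 with Anxa1 (0.55). The other partner pair, S100a10 with Anxa2, had 0.29. The lowest was S100a10 with Anxa6 (−0.21). These values are descriptions over 44 cells of 1 plate and library that differ in depth.

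**Figure D5:**
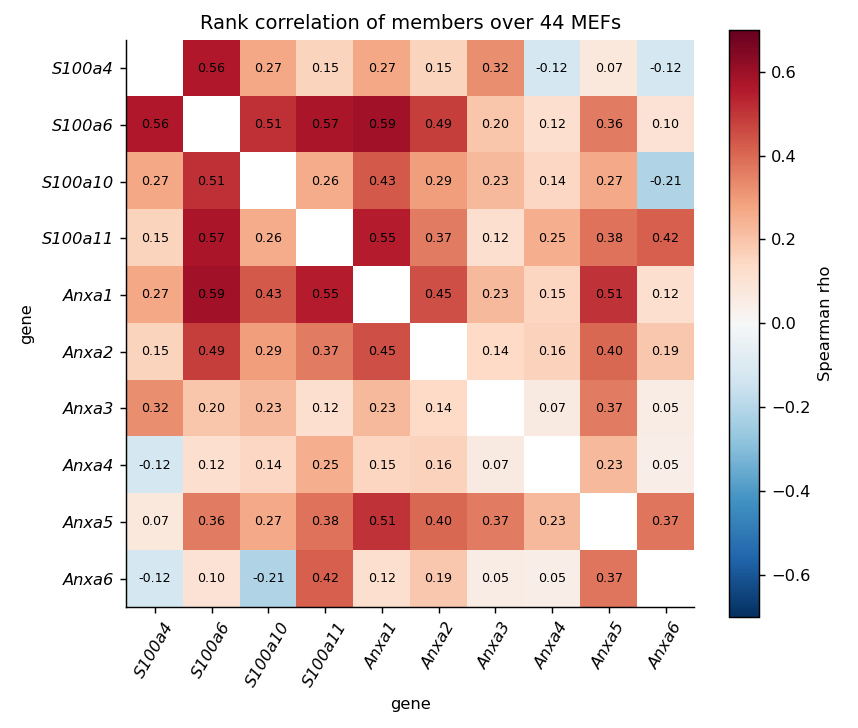
Spearman rho of per-cell CPM for each pair of the 10 genes over 44 MEFs, red above 0 and blue below 0. S100a6 has the strongest values, up to 0.59 with Anxa1, and Anxa6 runs over −0.21 to 0.42 with the S100 genes.

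The gene rows most like the members over MEFs, among 1883 read in at least 80% of MEFs with at least 50% unique reads, were named by their rho over 44 cells. For the summed S100 genes they were Cox6c (rho 0.65, and 0.61 after thinning), Romo1 (0.62 and 0.55), Txn1 (0.58 and 0.55), Cox7b (0.56 and 0.44) and Ndufb4 (0.55 and 0.45). Cox6c, Cox7b and Ndufb4 encode respiratory chain subunits and Txn1 encodes thioredoxin. For S100a6 the order opened with the same 3 genes, Cox6c (0.64), Romo1 (0.62) and Txn1 (0.58), followed by Robld3 (0.55) and Ndufb4 (0.53), and thinning put the 5 at 0.45 to 0.59.

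For the summed annexins the list was Hspb1 (0.58, and 0.54 after thinning), a small heat shock protein, then Cox5a (0.51 and 0.33), Rexo2 (0.48 and 0.41), Trappc4 (0.48 and 0.49) and Ywhae (0.47 and 0.38). For Anxa2 it was Med28 (0.60), Myeov2 (0.59), 1500032L24Rik (0.57), Pno1 (0.56) and Ran (0.54), and thinning put these at 0.24 (Myeov2) to 0.49 (Pno1). S100a10 was most like Cox7b (0.67), Cox6c (0.52) and Txn1 (0.50), S100a11 like Hspb1 (0.62), Ppia (0.52) and Txndc15 (0.52), and S100a4 like Rpl35a, Timp3 and Nars (0.48 each). Anxa1 was most like Atp5h, Cox6c and Hspb1 (0.56 each), and Anxa5 like Igfbp7 (0.56), Apc (0.54) and Trappc4 (0.49). Anxa3 was most like Cdc42bpa (0.50), Nhp2l1 (0.44) and Fam114a1 (0.44), and Anxa4 like Gm12070 (0.48), Hsd17b12 (0.47) and Spag9 (0.47). Thinning gave 0.31, 0.44 and 0.23 for the S100a4 genes in this order, 0.53, 0.31 and 0.46 for those of S100a11 and 0.55, 0.44 and 0.39 for those of S100a10. It gave 0.46, 0.60 and 0.47 for those of Anxa1, 0.35, 0.40 and 0.52 for Anxa3, 0.23, 0.33 and 0.44 for Anxa4 and 0.41, 0.46 and 0.34 for Anxa5. Among the genes most like Anxa6 were Fn1 (0.54, and 0.45 after thinning) and Itgb1 (0.48 and 0.41), which encode fibronectin and an integrin subunit.

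The remaining S100 and annexin genes had 0 to 2952 reads each in MEFs, against 6289 to 288722 for the members. As the members were chosen with earlier results of these data known, this contrast is no independent result. Of the 16 S100 rows in the file, 13 lie on chromosome 3, 8 had at least 20 reads and 8 had none. S100a5, S100a7a, S100a8, S100a9, S100a14, S100b, S100g and S100z had 0 reads in both types, S100a8 and S100a9 being the calprotectin genes of myeloid cells. Of the 12 annexin rows, Anxa10 and Anxa13 had 0 reads. The list of other S100 genes also held S100pbp, which encodes a binding protein and no S100 protein, and 5 of its 13 rows in the file were measured.

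All 5 were at least 2-fold higher in MEFs, with a median log2 ratio of 2.26, against 58.5% of all rows and their median of 1.48. Median-of-ratios scaling, under which 36.4% of all rows passed towards MEFs and 30.1% towards ES cells, left 2 of the 5 and none towards ES cells. In this and the next lists, genes with 0 ES cell reads enter the median at the value that the floor gives. S100a13, which takes part in the release of fibroblast growth factor without a signal peptide, had 75.9 CPM in MEFs and 15.8 CPM in ES cells, a log2 ratio of 2.26 (SD 1.08). S100a16 had 23.7 CPM in MEFs and 1.03 CPM in ES cells, a log2 ratio of 4.52 (SD 2.62), from 833 and 9 reads. ES cell replicate 10 held 6 of those 9, and without it the ratio was 6.05. S100a1, best known from muscle, had 41 CPM in MEFs and 18.8 CPM in ES cells, a log2 ratio of 1.12 with an SD of 3.26, and its sign turned under median-of-ratios scaling (−0.16). ES cell replicate 16 held 52.4% of its ES cell reads, and without it the ratio was 2.17. S100a3 was read in 4 MEFs (130 reads) and in no ES cell, at least 10.7-fold higher in MEFs against a floor of 3 reads over the ES cells. MEF replicate 87 held 76 of those reads, and without it the bound was 4.61-fold.

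Among the other annexins, 3 of 4 that were measured passed 2-fold towards MEFs (58.5% of all rows), with a median of 2.11. Median-of-ratios scaling left 2 towards MEFs (36.4% of all rows) and put 1 towards ES cells (30.1%). Anxa7, the annexin also named synexin, had 84 CPM in MEFs and 13.1 CPM in ES cells (log2 ratio 2.68, SD 1.52), and Anxa8 had 52.3 and 4.70 CPM (3.48, SD 2.01). Anxa11, known from granules that carry RNA on lysosomes, had 75.7 CPM in MEFs and 64.4 CPM in ES cells, a log2 ratio of 0.23 with an SD of 2.19. MEF replicate 61 held 52.3% of its MEF reads and ES cell replicate 21 held 63.5% of its ES cell reads. The ratio was −0.76 without that MEF and 1.61 without that ES cell, and median-of-ratios scaling turned the ratio to −1.05. Anxa9 had 35 reads, all in 1 MEF.

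Of the known partners and genes of membrane repair, 21 of 25 measured passed 2-fold towards MEFs (58.5% of all rows) and 1 towards ES cells (15.4%), with a median log2 ratio of 3.11. Median-of-ratios scaling gave 16 and 4, against 36.4% and 30.1% of all rows. Against the median gene, 16 lay at least 2-fold above it (33.3% of all rows). Ahnak, a giant scaffold bound by the S100a10 and Anxa2 complex, had 1855 CPM in MEFs and 145 CPM in ES cells (log2 ratio 3.68, SD 1.13). Capn2, the large subunit of a calpain protease, had 238 and 10.9 CPM (4.45, SD 2.01), and Ctsb, the protease cathepsin B, 1401 and 106 CPM (3.73, SD 1.15). Cd44, the hyaluronan receptor, had 537 CPM in MEFs and 20.6 CPM in ES cells (4.70, SD 1.58).

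The 4 genes of that list that were not 2-fold higher in MEFs are named after their values were seen. Cacybp, which encodes the calcyclin-binding protein, had 73.4 CPM in MEFs and 76.7 CPM in ES cells (log2 ratio −0.06, SD 1.10). Sugt1, which encodes another protein with an S100-binding domain, had 68 and 93.2 CPM (−0.46, SD 1.83). Plau, the urokinase gene, had a log2 ratio of 0.12 (SD 2.46), and Trim72, a membrane repair gene with 65 reads in MEFs and 48 in ES cells, −1.57 (SD 2.82). The formyl peptide receptors Fpr1 and Fpr2, through which Anxa1 acts, had 0 reads in both types, as had the plasminogen gene Plg.

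Of the calmodulins and other EF-hand genes, 26 of 29 measured stood at least 2-fold higher in MEFs (58.5% of all rows) and none in ES cells (15.4%), with a median log2 ratio of 2.71. Under median-of-ratios scaling the counts were 20 and 2 (36.4% and 30.1% of all rows), and the sign turned for 4 genes. Relative to the median gene 18 lay at least 2-fold above (33.3% of all rows). Sparc, a calcium-binding matrix protein, had 3729 CPM in MEFs and 268 CPM in ES cells (3.80, SD 1.03), and Actn1, an actin cross-linker, 546 and 39.6 CPM (3.79, SD 1.27). Calu and Rcn2, calcium binders of the secretory pathway, had log2 ratios of 3.58 (SD 1.31) and 4.53 (SD 1.40).

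Of the other calcium-dependent membrane binders, genes with C2 domains, 9 of 13 measured passed 2-fold towards MEFs and 2 towards ES cells, shares near those of all rows (58.5% and 15.4%), with a median of 2.89. Median-of-ratios scaling gave 7 and 3 (36.4% and 30.1% of all rows). Relative to the median gene 7 lay at least 2-fold above (33.3% of all rows). The copine Cpne1 had 147 CPM in MEFs and 11.8 CPM in ES cells (3.64, SD 1.84), and 4.39 without ES cell replicate 47. Cpne8 had 29.4 and 0.917 CPM (5.0, SD 1.47), and 6.39 without ES cell replicate 34, which held 5 of its 8 ES cell reads. Cpne2 had 65.7 and 6.77 CPM (3.28, SD 3.55), with 60.9% of its MEF reads in MEF replicate 64, without which it was 1.97. Esyt1, a tether between membranes, had 138.8 CPM in MEFs and 18.7 CPM in ES cells (2.89, SD 1.53).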

How the data were processed

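The read counts of each well (for transcripts, spike-in RNAs and repeat types) were used as deposited by the authors, raw and with no normalisation. Per the file headers, barcodes, leading Gs and trailing As were removed, short or poor reads were dropped, and the counts are maximum exon hits, which include alternative mappings (nearly all reads of each member were unique). Per the submitters' processing notes Bowtie was used. Its version, the build and the annotation are not given in the sources used here. The transcript length in bases is another column deposited by the authors (not a measurement, and of unstated annotation).

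Wells with at least 10000 gene reads (rows other than repeats and spike-ins) were grouped by cell type label. For each type, CPM is the sum of a gene's counts over its cells relative to their summed gene reads. The log2 ratio is MEF over ES cell, with a floor of 3 reads for a sum of 0. Its SD is over the 8 plate rows. Intervals are exact Poisson for sums and exact binomial (Clopper-Pearson) for shares and for ratios of sums, at the 95% level. No molecular identifiers are mentioned, so intervals and floors cover counting error only, not PCR copies. The order of levels used the mean log2 ratio of neighbours over plate rows with 0.1 CPM per kilobase added, and a step counted when the mean exceeded the SD. Thinning drew 20000 reads per cell, and Spearman's rho was taken over per-cell CPM. As the labels name no separate cultures, no test was run. Calls are fold sizes, set beside their share over the 12818 gene rows with at least 20 reads.

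All members are named. Of each further list, the 4 measured genes with the largest absolute log2 ratio with 10 CPM added are named with values, and the genes most like the members are the 5 highest rho for each family sum, S100a6 and Anxa2, and the 3 highest for each other member. Some genes these rules cover are not reported here. The members, lists and rules were chosen with earlier results of these data known. The alternatives changed the scaling (median-of-ratios, TMM, spike-in RNA), the wells, the totals and the minimum reads. The scripts were tested on simulated counts. Python 3.11.15, numpy 2.4.6, pandas 2.3.3, scipy 1.17.1, matplotlib 3.10.9, and edgeR 4.0.16 in R 4.3.3 (TMM factors only) were used.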

Additional observations from a re-analysis of the deposited data

Results flagged for a closer look

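In the 4 negative control wells, 4 members had all their reads in 1 well, far from the other wells, which held 0. These were S100a4 with 11 reads, S100a11 with 5 reads, Anxa1 with 2 reads and Anxa2 with 20 reads. The first 3 of these were in replicate 94 and Anxa2 was in replicate 95. The summed annexins stood apart in the same way, with 6111 CPM in 1 control well. The rule sets the gap to the next well against the whole range, so any gene with all its reads in 1 well passes it. Its rate of about 1 in 20 groups by chance does not hold for counts this low, which are mostly 0. S100a6 had reads in all 4 control wells (34, 23, 23 and 4) and none stood apart.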

How the results depend on the processing

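No p-value was computed, so a log2 ratio counts as moved when it differs by more than its spread over plate rows. The members' median log2 ratio, MEF over ES cell, was 4.15, and it moved to 2.87 under median-of-ratios scaling, 3.04 under TMM scaling and 8.72 under spike-in scaling. These scalings shift all genes alike: the median over all gene rows was 1.48, and 0.20, 0.36 and 6.04 under them, so the members stood 2.67 above it in each. The share of all gene rows at least 2-fold higher in MEFs was 58.5%, against 36.4%, 39.1% and 94.7% under the 3 scalings, with 15.4%, 30.1%, 27.8% and 3.11% at least 2-fold higher in ES cells. Under every alternative run, 9 or 10 members were at least 2-fold higher in MEFs, the exception being S100a10 under median-of-ratios scaling (0.94). Of 160 values of single members under alternatives, 142 stayed within their spread, 18 moved and none changed sign (0.94 to 8.83). With the mean of per-cell CPM, 8 members exceeded the median gene by at least 2-fold, and after thinning all 10 did. Leaving out ES cell replicates 2, 7, 8 and 30, which hold more spike-in than gene reads, or the well with the most reads of a member or listed gene, was chosen after seeing the data. Shares of cells with a read, counted as moved when the thinned share left the 95% binomial interval at full depth, moved for 8 members. The median rho over member pairs was 0.25, and 0.19 after thinning. No paired analysis was possible because MEF and ES cell wells share no replicate numbers, and the plate rows, which hold different cells of both types, gave the spread of each ratio. Depth limits low members most: Anxa4 rests on 88 ES cell reads.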

Other observations

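Over the 6 MEF plate columns the pooled CPM of Anxa4 varied by 7.13-fold between the lowest and the highest column, that of Anxa3 by 4.64-fold, that of Anxa1 by 4.63-fold and that of S100a4 by 4.01-fold. S100a11 varied by 1.74-fold, S100a10 by 1.97-fold, Anxa6 by 1.98-fold, S100a6 by 2.09-fold, Anxa2 by 2.16-fold and Anxa5 by 2.37-fold.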
